A study of Rattus norvegicus with 18 samples.

Results

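The HoxA cluster genes measured here were Hoxa5, Hoxa7, Hoxa9, Hoxa10 and Hoxa11, followed along the colon of 9 rats. They were taken as every probe set that the array annotation assigns to exactly 1 of these symbols, which gave 5 probe sets, 1 per gene, among 31099 on the array and 14217 genes named by such probe sets. All 5 passed the filter on low signal. The samples were 18 Affymetrix arrays of scraped colonic mucosa, 9 proximal and 9 distal, from male Sprague Dawley rats numbered 1 to 8 and 10, so that each rat gave 1 array per region. All of them had been fed modified AIN-93G for 10 days and then injected subcutaneously with azoxymethane (AOM), an alkylating colon carcinogen, at 15 mg per kg, 6 h before death. No untreated rats were used here, the age of the rats is not given, and the labels do not mark the 2 groups into which the design says the rats were allocated, so distal against proximal colon is the only comparison.

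Hox genes encode homeodomain transcription factors that give cells their position along the body axis. They lie in 4 clusters, and within a cluster the order of the genes on the chromosome follows the order of their expression from front to back. Genes of the same number in different clusters are paralogs. Hoxa5 and Hoxa7 belong to the anterior and central part of the HoxA cluster, and Hoxa9, Hoxa10 and Hoxa11 to its posterior part, which is related to the fly gene Abdominal-B. In the gut, Hox genes are transcribed in the mesenchyme and some also in the epithelium, and in a scraping a change in the share of such cells and a change in RNA per cell cannot be told apart.

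Signals are log2 of the deposited intensity plus 16, after quantile normalization, and differences are distal minus proximal. Epithelial markers were strong throughout, with a summed signal (signals added on the linear scale) of 84182 to 98130 in proximal and 86069 to 93830 in distal arrays. Of these 12 markers, Vil1, Muc2 and Krt20 were higher in proximal colon, by 1.15-fold to 1.40-fold, and Elf3 was 1.21-fold higher in distal colon (limma, adjusted p below 0.05). By the same threshold, 30.8% of all genes tested passed. The proximal array of rat 3 stood apart with a smooth muscle score (mean log2 signal of 12 markers) of 11.54, against 6.86 to 8.32 in the other proximal arrays. The proximal arrays of rats 3 and 6 also had the lowest Hoxb13 signals, at 4.57 and 4.27, against 6.65 to 9.57 in the other 7. Results that rest on these arrays are given with and without them.

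In distal colon, 4 of the 5 HoxA genes were lower than in proximal colon and 0 were higher (limma, adjusted p below 0.05, and the same 4 and 0 at an unadjusted p below 0.05). Among all 21729 probe sets tested, 26.5% passed, 12.2% as higher in proximal and 14.3% as higher in distal colon. Hoxa9 showed the largest difference of the 5, and Hoxa5 did not pass. The median difference of the 5 was -0.80, against 0.03 over all probe sets tested. Without the proximal arrays of rats 3 and 6 the counts were again 4 and 0.

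**Figure D1:**
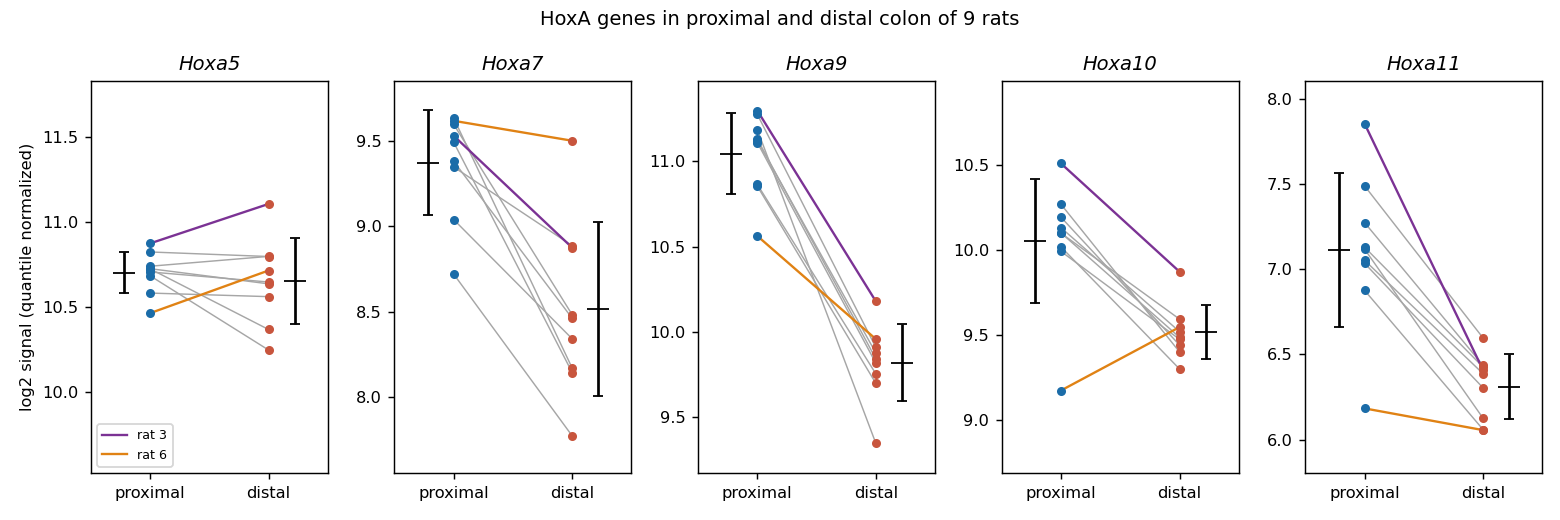
Log2 signal (y axis, each panel 2.3 units high) of the 5 HoxA genes in proximal and distal colon, with a line joining the arrays of each rat and black bars for mean and SD (n = 9 each). Hoxa9 falls in every rat with no overlap between regions, and the regions overlap for Hoxa5, Hoxa7, Hoxa10 and Hoxa11. Rat 6 (orange) starts low in proximal colon for Hoxa9, Hoxa10 and Hoxa11.

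Hoxa5, the most anterior of the 5 genes and a patterning factor of lung and gut mesenchyme, was the gene that did not differ detectably between the regions. Its proximal signal ran from 10.46 to 10.87 with a median of 10.73, and its distal signal from 10.25 to 11.11 with a median of 10.65. The regions overlapped, with the widest spread in distal colon, where rat 3 was highest and rat 10 lowest. The means were 10.70 ± 0.12 and 10.65 ± 0.25 (SD, n = 9 each), a difference of -0.05 ± 0.09 (SE; limma adjusted p = 0.723), lower in distal colon in 6 of 9 rats. The 95% confidence interval of this difference, -0.23 to 0.13, leaves room for a change of that size in either direction.

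Hoxa7, a central gene of the cluster, fell by 0.86 on the log2 scale, or 1.82-fold, from proximal to distal colon. Proximal signals ran from 8.72 to 9.64 (median 9.49) and distal signals from 7.77 to 9.50 (median 8.46). The ranges overlapped. The distal array of rat 6, at 9.50, was above the next highest, 8.89 in rat 2, and rat 10 was lowest in both regions. Mean signals were 9.37 ± 0.31 and 8.51 ± 0.51 (SD, n = 9 each), with a difference of -0.86 ± 0.18 (SE; limma adjusted p = 0.00157). It was lower in distal colon in 9 of 9 rats, by as little as 0.12 in rat 6 and as much as 1.47 in rat 7.

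Hoxa9, a posterior gene best known for its part in blood stem cells and limb and axial patterning, separated the regions completely. Its signal was 10.56 to 11.30 in proximal colon (median 11.12) and 9.35 to 10.18 in distal colon (median 9.84). The lowest proximal array, that of rat 6, was above the highest distal array, that of rat 3. The share of all probe sets whose regions do not overlap is not given here. The means of 11.05 ± 0.24 and 9.82 ± 0.22 (SD, n = 9 each) differed by -1.23 ± 0.10 (SE; limma adjusted p = 3.37e-08), which is 2.34-fold lower in distal colon. All 9 rats showed it, with differences from -0.61 in rat 6 to -1.84 in rat 5.

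Hoxa10, the next gene toward the posterior end and a regulator of uterus, limb and vertebral identity, was 1.45-fold lower in distal colon. Proximal signals ran from 9.18 to 10.51 (median 10.10) and distal ones from 9.30 to 9.87 (median 9.49). Apart from rat 6, whose proximal array was below all distal arrays, the regions did not overlap, since the other 8 proximal arrays lay at 9.99 or higher. The means were 10.05 ± 0.36 and 9.52 ± 0.16 (SD, n = 9 each) and the difference -0.54 ± 0.12 (SE; limma adjusted p = 0.00294), lower in distal colon in 8 of 9 rats. In rat 6 the distal array was 0.37 higher. Without the proximal arrays of rats 3 and 6 the difference was -0.60 (limma adjusted p = 4.22e-06).

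Hoxa11, a regulator of limb, kidney and uterus, was 1.74-fold lower in distal colon. Its signal was low, at 6.18 to 7.85 in proximal colon (median 7.12) and 6.06 to 6.60 in distal colon (median 6.39), where the filter for low signal lay at 5.54. On the deposited linear scale this was 67.5 to 259.5 in proximal and 38.8 to 93.5 in distal colon. Rat 3 was highest and rat 6 lowest in proximal colon, and without rat 6 the regions did not overlap. The means of 7.11 ± 0.45 and 6.31 ± 0.19 (SD, n = 9 each) differed by -0.80 ± 0.16 (SE; limma adjusted p = 0.000834), lower in distal colon in 9 of 9 rats. A fold at this level is understated by the added 16, and with an added 1 the difference was -0.93.

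The 5 genes did not change by the same amount. To compare them within arrays, the log2 ratio of each pair of genes was taken from the normalized signals of an array. Such a ratio still depends on the quantile normalization and on the added constant. The change of each ratio from proximal to distal colon was tested over rats by an exact sign permutation. This permutation was two-sided, with Benjamini-Hochberg adjustment over the 10 pairs, and its smallest possible p was 0.00391. The test was chosen after the values were seen. Relative to Hoxa5, Hoxa9 fell by 1.18 ± 0.08 (SE, n = 9 rats; exact p = 0.00391, adjusted p = 0.00977), in 9 of 9 rats. Relative to Hoxa10 it also fell in 9 of 9 rats, by 0.69 ± 0.08 (exact p = 0.00391, adjusted p = 0.00977), and relative to Hoxa11 in 8 of 9 rats, by 0.42 ± 0.11 (exact p = 0.0117, adjusted p = 0.0195). The last of these was not called with an added 1 (adjusted p = 0.0521). By these probe sets, whose targets were not checked, the size of the decrease did not follow the order of the genes on the chromosome. Hoxa9 lies between Hoxa7 and Hoxa10. Hoxa7 and Hoxa11 were not told apart, with a change of -0.06 ± 0.15 in their ratio (exact p = 0.707, adjusted p = 0.707). The change of Hoxa7 over Hoxa10 was -0.32 (exact p = 0.0430, adjusted p = 0.0477), with adjusted p from 0.0521 to 0.0955 when 1 of rats 1, 3, 4, 5, 6, 7, 8 or 10 was left out. Relative to Hoxa11, Hoxa10 was higher in distal colon by 0.26 ± 0.09 (exact p = 0.0156, adjusted p = 0.0195), a difference that came to 0.15 (adjusted p = 0.0781) once the proximal arrays of rats 3 and 6 were left out, and to 0.047 with an added 64.

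Besides the 5 members, 2 other transcripts of the cluster had a probe set, and both were singled out after their values were seen. Hoxa11-as is a long noncoding RNA read from the opposite strand to Hoxa11, from a start close to that of Hoxa11. Hoxa3l1 is a gene model near Hoxa3 and Hoxa4. In RefSeq (assembly GRCr8) the starts of Hoxa11 and Hoxa11-as face away from each other on chromosome 4, at positions 82676801 and 82677028, with 226 bases between them. The stretch is shown because both transcripts begin at its ends. It is chr4:82676802-82677027, printed on the minus strand, 5′ to 3′ toward the Hoxa11 start, and capitals mark CG pairs.

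Hoxa11-as to Hoxa11: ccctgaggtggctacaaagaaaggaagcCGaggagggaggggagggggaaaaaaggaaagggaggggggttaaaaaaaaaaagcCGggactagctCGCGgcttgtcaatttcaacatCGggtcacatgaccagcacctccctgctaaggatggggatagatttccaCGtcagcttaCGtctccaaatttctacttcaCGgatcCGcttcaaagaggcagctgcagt

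The stretch holds 9 CG pairs and 52.2% G and C. The 250 bases before a start held a median of 5 CG pairs over 33469 starts in the same table. Hoxa11 was lower in distal colon, as given above, while Hoxa11-as was not called in either direction. Hoxa11-as had proximal signals of 7.60 to 10.42 (median 10.15) and distal signals of 9.81 to 10.73 (median 10.37). It was higher in distal colon in 8 of 9 rats, by 0.71 ± 0.31 (SE, n = 9 each), which did not pass (limma adjusted p = 0.0923). Most of this difference came from the proximal arrays of rats 3 and 6, at 8.43 and 7.60 against 9.72 or more in the other 7. Without these 2 arrays it was 0.24 (adjusted p = 0.139). The ratio of antisense to sense within an array was higher in distal colon in 9 of 9 rats, by 1.52 ± 0.37 on the log2 scale (SE). This direction follows from the single genes, since Hoxa11 was lower in 9 of 9 rats and Hoxa11-as level or higher. No test of the ratio is therefore given. The smallest change of the ratio was 0.73, and the largest, 3.75, was in rat 3. Without rats 3 and 6 the ratio was higher by 0.97 ± 0.06 in the other 7 rats. The strand that each probe set detects was not checked here. For Hoxa3l1 the difference was 0.0076 ± 0.11 (limma adjusted p = 0.970). Its sign changed in several settings.

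**Figure D2:**
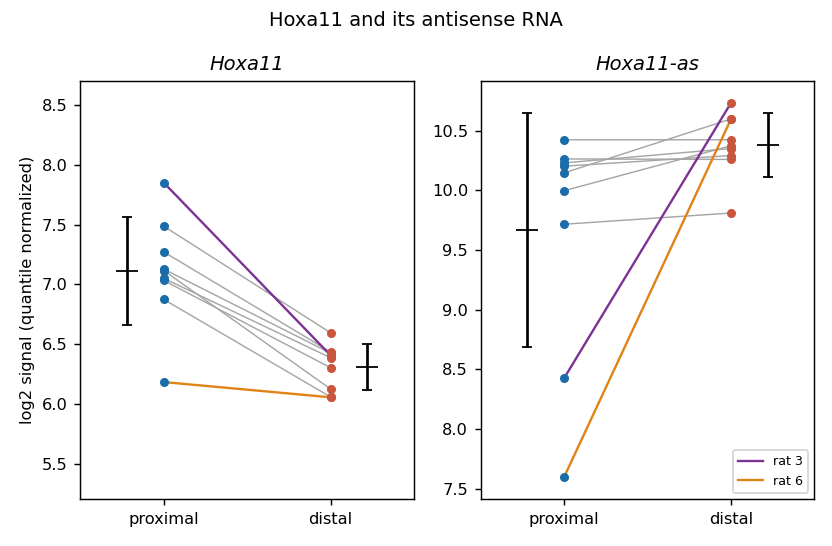
Log2 signal (y axis, each panel 3.5 units high) of Hoxa11 and Hoxa11-as in proximal and distal colon of the 9 rats, with lines joining the arrays of a rat and black bars for mean and SD. Hoxa11 is lower in distal colon in every rat, while Hoxa11-as is level or higher there and is low in the proximal arrays of rats 3 (purple) and 6 (orange).

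RefSeq start sites on GRCr8 were listed for 4 of the 5 members, all but Hoxa5. The 250 bases before each start were searched on both strands for TTTATNG, letters found in sites of the caudal factors Cdx1 and Cdx2, which are known to act on Hox genes, and for TATAAA. Among 33469 stretches of this length, 10.1% held TTTATNG and 12.9% held TATAAA. Hoxa9 and the outer of 2 Hoxa10 starts each held 1 TTTATNG on the opposite strand, and Hoxa7, Hoxa11 and the inner Hoxa10 start held 0. In both cases the match overlaps a TATAAA on the printed strand. A match describes the letters and is not evidence of binding. It begins 158 bases before the Hoxa9 start, within the span of a longer Hoxa9 model, and 249 bases before the Hoxa10 start. The 30 bases around each are shown because they hold the only matches among the members searched. Hoxa7 and Hoxa11, with 0 matches, were lower in distal colon too, and any part of a match in the differences was not tested. The stretches are chr4:82657188-82657217 and chr4:82671711-82671740, minus strand, 5′ to 3′, with the match in capitals.

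Hoxa9: tatggcttttgCTATAAAaattatgactgc

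Hoxa10: gCTATAAAcccggctggggttttgcagcaa

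Among the regulators known to act above Hox genes, both caudal factors were lower in distal colon. Cdx2, the main homeobox factor of intestinal identity, averaged 11.49 ± 0.09 proximally and 10.85 ± 0.50 distally (SD, n = 9 each). It was 1.55-fold lower in distal colon in 8 of 9 rats (limma adjusted p = 0.00467). Cdx1, its paralog in the crypts, named here after its values were seen, was 1.43-fold lower in 9 of 9 rats (adjusted p = 0.00325). They belong to a list of 16 measured caudal and retinoic acid genes, in which 4 rose toward distal colon and 3 fell. Dhrs3, which reduces retinal to retinol, was 1.85-fold higher in proximal colon (adjusted p = 9.67e-05). Crabp2, which carries retinoic acid to its receptors, was 1.83-fold higher in distal colon (adjusted p = 0.00440). Aldh1a3, which makes retinoic acid, was 1.74-fold higher in distal colon (adjusted p = 0.0153). On the arrays as deposited, without normalization, its adjusted p was 0.0922, and it was 0.0535 without rat 2. The list median was -0.10, against 0.01 over the 11407 genes tested, of which 30.8% passed, 16.2% as higher in distal and 14.5% as higher in proximal colon.

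Hox proteins bind DNA with partners of the TALE homeodomain class. Of 8 measured TALE genes of the Pbx, Meis, Pknox and Tgif families, 0 passed with limma, and 2 were higher in distal colon at an unadjusted p below 0.05. These 2, named after their values were seen, were Pbx2, which differed by 0.17 (limma adjusted p = 0.0945), and Pknox1, which differed by 0.18 (limma adjusted p = 0.0984). Hox clusters are kept silent by Polycomb complexes and active by Trithorax ones. Of 34 measured genes of these complexes, 7 rose toward distal colon and 6 fell, with a median of 0.03. Over all genes tested, 16.2% passed as higher in distal and 14.5% as higher in proximal colon. Suz12, a core subunit of the Polycomb complex that methylates histone H3, was 1.60-fold higher in proximal colon (adjusted p = 2.02e-05). So were Pcgf6, of a variant Polycomb complex (1.47-fold, adjusted p = 1.31e-05), and Cbx6, a chromodomain subunit (1.80-fold, adjusted p = 0.0115). Pcgf3, of another variant complex, was 1.35-fold higher in distal colon (adjusted p = 0.000495), a call lost on the arrays as deposited (adjusted p = 0.0599).

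Genes that flank the cluster were measured too. Of 5 with a tested probe set, 1 was higher in each direction, where 30.8% of all genes tested passed. Hnrnpa2b1, an RNA-binding protein, was 1.37-fold higher in proximal colon (limma adjusted p = 5.42e-06), a call lost with the mean of its probe sets (adjusted p = 0.132). Tax1bp1, an autophagy receptor, was 1.08-fold higher in distal colon (adjusted p = 0.0338), and this did not hold on the arrays as deposited, where the difference was -0.014. Skap2, on the anterior side of the cluster, differed by -0.29 (adjusted p = 0.0783), and Hibadh, on the posterior side, by 0.06 (adjusted p = 0.601).

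Hoxd10, of the posterior part of the HoxD cluster, was higher in distal colon. Of 11 measured genes of the HoxB, HoxC and HoxD clusters, Hoxb13 and Hoxd10 were called higher in distal colon and Hoxb3 and Hoxd8 in proximal colon. Over all genes tested, 16.2% passed as higher in distal and 14.5% as higher in proximal colon. Hoxd9 and Hoxd4 are described below without a test. Hoxb13, a gene of the most posterior group, was 17.1-fold higher in distal colon (limma adjusted p = 5.99e-05), with a log2 difference of 4.10, which was 3.14 without the proximal arrays of rats 3 and 6. Hoxd8 was 2.17-fold and Hoxb3 1.52-fold higher in proximal colon (adjusted p = 0.00301 and 0.00377). Hoxd10, the paralog of Hoxa10, was 11.3-fold higher in distal colon (adjusted p = 7.16e-07). Hoxd9, the paralog of Hoxa9, had a mean of 5.39 in proximal colon, below the filter level of 5.54, and of 7.16 in distal colon. Hoxd4 had 6.47 in proximal and 5.08, below that level, in distal colon. These 2 passed the filter through the region where they are high, so no test of them is given. The size of their difference depends on the added constant. For Hoxd9 it was 2.39 with an added 1 and 1.04 with an added 64, and for Hoxd4 -2.08 and -0.75. In the proximal array of rat 3, Hoxd10 was at 9.43, against 5.32 to 6.51 in the other 8, and Hoxd9 at 7.48, against 4.57 to 5.66. Hoxd11 differed by 0.26 ± 0.10 (SE; adjusted p = 0.0633), and Hoxb7, the paralog of Hoxa7, by -0.69 ± 0.31 (adjusted p = 0.105). For paralogs, the ratio of the HoxA gene to its partner within an array was taken as above, in 4 pairs chosen after the values were seen. The log2 ratio changed by -4.04 ± 0.44 (SE, n = 9 rats) for Hoxa10 over Hoxd10 and by -1.06 ± 0.10 for Hoxa11 over Hoxd11. It was lower in distal colon in 9 of 9 rats both times. Hoxd10 alone was higher there in 9 rats and Hoxd11 in 8, while Hoxa10 was lower in 8 and Hoxa11 in 9. These 2 ratios thus largely restate the differences of the single genes, and no test of them is given. With an added 64 the change for Hoxa11 over Hoxd11, both of low signal, was -0.70. For Hoxa9 over Hoxd9 the ratio was also lower in 9 of 9 rats, but its size rests on a proximal Hoxd9 signal below the filter level and ran from -3.63 with an added 1 to -2.22 with an added 64, so no test of it is given. For Hoxa7 and Hoxb7 the ratio changed by -0.17 ± 0.41 (exact sign permutation p = 0.688, adjusted over the 4 pairs 0.688). Without rats 3 and 6 the changes were -4.63 for Hoxa10 over Hoxd10, -1.04 for Hoxa11 over Hoxd11 and -0.58 for Hoxa7 over Hoxb7. The other measured Hox genes that did not pass were Hoxb4, Hoxb6 and Hoxc4.

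**Figure D3:**
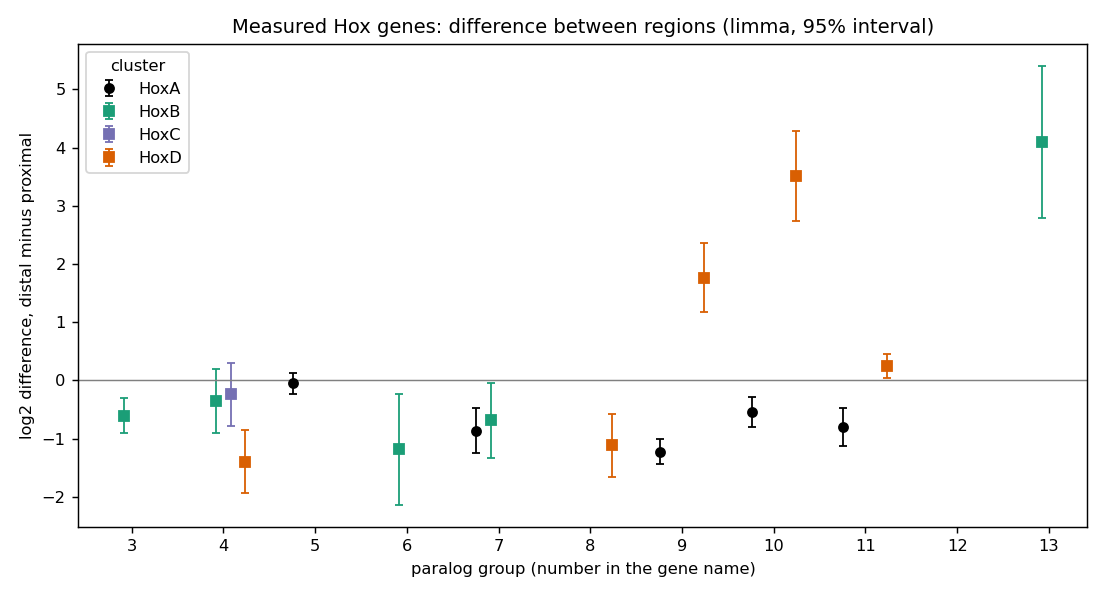
Difference between distal and proximal colon (y axis, log2, limma estimate with 95% interval) of every measured Hox gene, by paralog group (x axis) and cluster (colour). The HoxA genes of groups 7 to 11 (black) lie below 0, while Hoxd10 and Hoxb13 lie above it. Hoxd9 also lies above 0, but its proximal mean is below the filter level.

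Markers of other cell types in the scrapings bear on genes that are also transcribed in mesenchyme. Of 12 smooth muscle markers, 1 was higher in proximal and 0 in distal colon (the same 1 and 0 at an unadjusted p below 0.05). The marker called was Pcp4, with a mean of 6.50 (SD 1.91) in proximal and 4.87 in distal colon (limma adjusted p = 0.0464). Its distal mean was below the filter level, so it passed the filter through the region where it is high. The summed signal of the 12 markers was 2799 to 60255 in proximal and 2411 to 12343 in distal arrays. Of 12 fibroblast markers, 0 passed with limma and 0 had an unadjusted p below 0.05, with sums of 945.2 to 26551 and 1098 to 18571. The medians of these sums were 3988 in proximal and 1952 in distal arrays. Every fibroblast marker averaged lower in distal colon, with a median difference of -0.49. No fibroblast score was fitted as a covariate, so the part of fibroblast content in the HoxA differences was not tested. None of 5 enteric neuron and glia markers, 7 endothelial and 8 leukocyte markers passed with limma, and 0 of each had an unadjusted p below 0.05. Gfap, Stmn2 and Vwf were near the filter level. Rat 3, with the highest smooth muscle and fibroblast sums in proximal colon, also had the highest proximal Hoxa5, Hoxa9, Hoxa10 and Hoxa11. In distal colon, rat 7 had the highest fibroblast sum, with Hoxa5, Hoxa7, Hoxa9 and Hoxa10 below the region mean and Hoxa11 above it. Rat 3, with the highest smooth muscle sum there, had all 5 above it. With the smooth muscle score as a covariate the differences were -1.20 for Hoxa9, -0.87 for Hoxa7, -0.75 for Hoxa11 and -0.49 for Hoxa10, and all 4 passed. They were -1.24, -0.84, -0.74 and -0.53 without the 3 arrays of highest score (rat 3 in both regions and rat 7 in distal colon), and again all 4 passed.

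Among rats, several members varied together in proximal colon, and Hoxa7 with none of the others. Pearson's r over the 9 proximal arrays was 0.945 between Hoxa5 and Hoxa9 (Spearman's rho 0.867; exact permutation p = 0.000141 and 0.00451; adjusted p = 0.00334 over 25 relations). It was 0.861 between Hoxa9 and Hoxa10 (rho 0.717; exact p = 0.00291 and 0.0369; adjusted p = 0.0182) and 0.865 between Hoxa10 and Hoxa11 (rho 0.367; exact p = 0.0104 and 0.336; adjusted p = 0.0400). Hoxa7 had r from -0.25 to 0.10 with the other 4 genes. Without the 2 arrays farthest from the median of the first gene, r was 0.853 for Hoxa5 with Hoxa9, 0.735 for Hoxa9 with Hoxa10 and -0.20 for Hoxa10 with Hoxa11. The 3 other pairs that passed were Hoxa5 with Hoxa10 (r = 0.915, and 0.777 without such arrays), Hoxa9 with Hoxa11 (0.874 and 0.594) and Hoxa5 with Hoxa11 (0.855 and 0.314). The relations of Hoxa11 with Hoxa10 and with Hoxa5 thus rest on those arrays. In proximal colon 6 of 10 pairs passed, and in distal colon 1 of 10, Hoxa5 with Hoxa9 (r = 0.827, rho 0.800; exact p = 0.0112 and 0.0138; adjusted p = 0.0400; r = 0.866 without the 2 farthest arrays). These counts depend on the scaling, with 4 proximal and 3 distal pairs on the arrays as deposited and 3 of each with arrays centred on their medians, and a difference between the regions was not tested. Without rat 6, 0 of the 25 relations passed, and 5 had an unadjusted exact p below 0.05. Leaving out the proximal arrays of rats 3 and 6 instead gave 0 and 7.

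**Figure D4:**
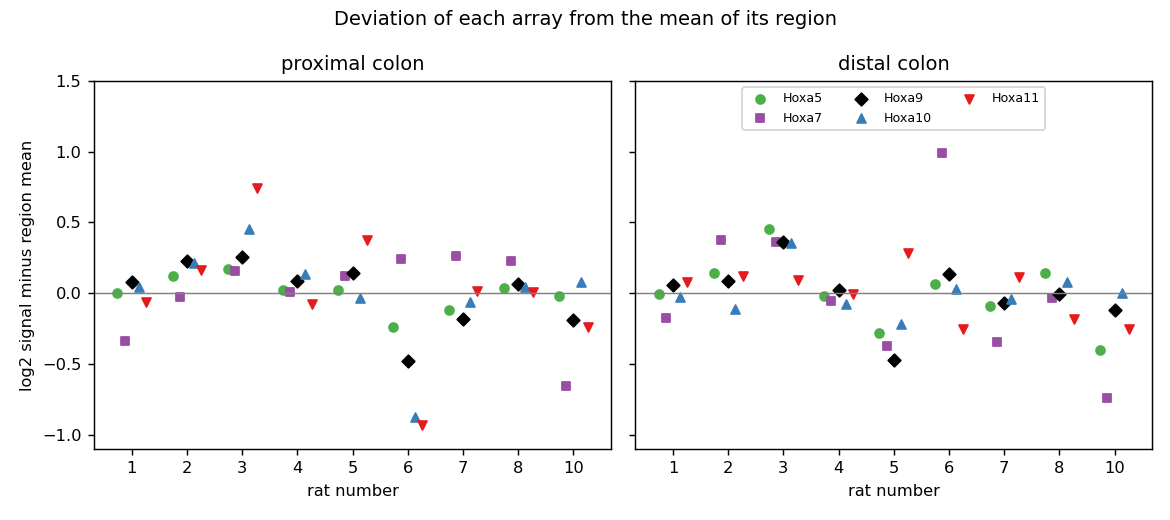
Log2 signal minus the mean of the region (y axis) for the 5 genes in each rat (x axis), in proximal and distal colon. In the proximal array of rat 6, Hoxa5, Hoxa9, Hoxa10 and Hoxa11 lie below the mean and Hoxa7 above it, while in rat 3 all 5 lie above it in both regions.

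A rat's proximal and distal arrays were compared for each gene in the same way. Hoxa11 gave r = 0.714 (rho 0.850; exact p = 0.0226 and 0.00607; adjusted p = 0.0707, n = 9 rats), and r = 0.820 without the 2 rats farthest from the median. It did not pass, and neither did the other 4 genes, with r from 0.045 to 0.55.

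The genes most like each member were ranked by Pearson's r over the 18 arrays among 11287 named genes, as a description, since arrays of a rat and of a region are not independent. With the signals as measured, the closest to Hoxa9 were Oaz2, a regulator of polyamine synthesis (r = 0.973), Myorg, a glycosidase (0.968), and Cd302, a lectin receptor (0.967). Those of Hoxa7 were Casp12 (0.882), Slc35g2 (0.878) and Recql4, a DNA helicase (0.876), and those of Hoxa5 were Ephb4, an ephrin receptor (0.817), Nherf2 (0.794) and Dync1li2, a dynein chain (0.789). Hoxa10 was closest to Tmx4 (0.902), Zcchc12 (0.895) and Ptgis, prostacyclin synthase (0.872), and Hoxa11 to Zcchc12 (0.883), Plet1 (0.878) and Hoxa10 itself (0.856). Once the mean of each region was subtracted, the genes closest to Hoxa5 were Dync1li2 (0.820), Ephb4 (0.814) and Hoxa9 (0.810). For Hoxa9 the order was then Rab2b (0.845), Dync1li2 (0.838) and Ppp1r1b (0.837), for Hoxa10 Cdc42ep3 (0.871), Rab11fip5 (0.834) and Dynll2 (0.833), for Hoxa7 Nprl3 (0.789), Farp2 (0.777) and Recql4 (0.769), and for Hoxa11 Hacd1 (0.867), Clic4 (0.799) and Cdk8 (0.789).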

How the data were processed

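The authors deposited 1 linear intensity per probe set and array, computed by MAS5 according to the submitters' processing notes. Which version and which scaling target is not given in the sources used here, and detection calls were not used here. Column medians ran from 66.9 to 115.1 and 2%-trimmed means from 211.2 to 342.4, so the arrays did not share 1 scale. From the deposited intensities of 31042 probe sets that are not controls, log2(value + 16) was taken and quantile normalized with limma 3.58.1 in R 4.3.3. This removes any overall shift between regions. The lowest 30% by mean over all arrays (below 5.54) were left out, and 21729 were fitted (lmFit, then eBayes with trend, two-sided) with Benjamini-Hochberg adjustment over all of them. Folds are on the log2(value + 16) scale, and standard errors are limma's. A gene outside the cluster stands for its probe set of highest mean. The number of arrays limits the precision. The fit was tested on simulated data.

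The rat numbers pair the arrays, since both arrays of a number came from 1 animal per the labels. Deviations from the region means correlated within rats, with a median r of 0.226 (lowest 0.000945, highest 0.569), and r passed 0.1 in 6 of 9 rats. Rat as a block was an alternative fit. At most 0.00643% of values were identical between any 2 arrays.

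Names came from the array annotation, which can be old. The identifier it gives for Hoxa11 is not in the RefSeq table used here, which also lists Hoxa9 as an older name of Hoxa7 and Hoxa10 as one of Hoxa11. Probe sequences were not used, so what each probe set detects was not checked.

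Members, lists and the rule for named genes were chosen with earlier results of these data known. The rule named each member probe set, each measured Hox gene, up to 4 genes with the largest differences among those called in every other list, and the 3 genes most like each member. Other genes of the cluster are not reported here. Permutations and figures used Python 3.11.15, numpy 2.4.6, scipy 1.17.1 and matplotlib 3.10.9.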

Additional observations from a re-analysis of the deposited data

Results flagged for a closer look

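Among the 14 sets of 9 arrays checked (the 5 members, Hoxa11-as and Hoxa3l1 in each region), 1 held a value far from the others by Dixon's criterion, which chance meets in about 1 in 20 sets. This was Hoxa10 in the proximal array of rat 6, at a log2 signal of 9.18, where the gap to the next lowest array was 0.613 of the whole range. In that array Hoxa5, Hoxa9 and Hoxa11 were also the lowest of the 9 proximal values, at 10.46, 10.56 and 6.18, while Hoxa7, at 9.62, was the second highest. Its smooth muscle score was 7.22, within the range of the other proximal arrays. Its summed leukocyte markers were 12303, above the proximal median of 6983 but also within the range of the other proximal arrays, 2183 to 14243. The part of either in these values was not tested.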

How the results depend on the processing

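Each of the 5 members kept its direction and its side of the threshold under all 21 alternatives, including the deposited scaling, arrays centred on their medians, other pseudocounts and filters, no intensity trend, rat as a replicate block and each rat left out. The count of members higher in proximal colon was 4 and that of members higher in distal colon 0 throughout, also with rat as a replicate block, where Hoxa9 had a difference of -1.23 (limma adjusted p = 1.74e-06) and Hoxa5 of -0.05 (adjusted p = 0.627). Leaving out 1 rat gave differences of -1.30 to -1.15 for Hoxa9, -0.95 to -0.78 for Hoxa7, -0.89 to -0.72 for Hoxa11, -0.65 to -0.50 for Hoxa10 and -0.087 to -0.0015 for Hoxa5. Among the genes chosen by the naming rule, the block changed no call. The deposited scaling moved the median of all probe sets to -0.09, from 0.03.

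Of the 74 genes measured in the other Hox, regulator, chromatin and flanking lists, 28 passed, and 18 with the deposited scaling. Over all genes tested, 30.8% passed. The share of all probe sets that passed also fell with the deposited scaling, from 26.5% to 15.8%. The 28 include Hoxd4 and Hoxd9, which passed the filter through the region where they are high. The relations between members that passed were 7 of 25, against 0 to 8 with 1 rat left out (4 without rat 2, 3 or 7 and 0 without rat 6), 0 when the proximal arrays of rats 3 and 6 were dropped, and 4 when the 3 arrays of highest smooth muscle score were. Hoxa3l1 turned sign with the deposited scaling (-0.12), with rat 3, 7, 8 or 10 left out (range over 9 rats -0.049 to 0.070), with those 2 proximal arrays dropped (-0.034) or those 3 (-0.070), and with the score as a covariate (-0.0055). Tax1bp1 turned with the deposited scaling (-0.014) and also lost its call with arrays centred on their medians, no filter, no trend, the same 2 proximal arrays dropped, or without rat 1, 2, 4, 6, 7 or 10 (adjusted p 0.0509 to 0.397). The ratio of Hoxa7 to Hoxa11 turned with a pseudocount of 1 (0.042) and without rat 7 (range over 9 rats -0.165 to 0.029), that of Hoxa7 to Hoxb7 turned without rat 10 (range over 9 rats -0.41 to 0.0094), and that of Hoxa9 to Hoxa11 had an adjusted p of 0.0521 with a pseudocount of 1. The ratios of Hoxa11-as to Hoxa11 and of Hoxa10 and Hoxa11 to their HoxD paralogs kept direction in these settings, which for them were chosen after seeing the data. Hoxb6 passed without rat 4 or 10, Hoxb7 without rat 10, and Hoxd11 without rat 8 or the trend. The causes were not tested.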
